A study of Homo sapiens with 6 samples.

Results

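The interferon regulatory factors (IRFs) are transcription factors that share a DNA-binding domain and control interferon genes and the genes that interferons induce. The 8 genes IRF1, IRF2, IRF3, IRF4, IRF5, IRF7, IRF8 and IRF9 were taken by symbol from the 23617 gene symbols of the MDA-MB-231 table, where they have 24 RefSeq transcripts, and from the 1854 symbols of the HMLER table. RNA-seq was available for 6 libraries: 2 of untreated and 2 of DAC-treated HMLER cells, and 1 of untreated and 1 of DAC-treated MDA-MB-231 cells. HMLER is a line obtained by transforming human mammary epithelial cells in vitro, and MDA-MB-231 is an established human breast cancer line. Decitabine (DAC, 5-aza-2'-deoxycytidine) is a cytidine analog and an inhibitor of DNA methyltransferases, and treated cells received 10 µM each day and were collected at 72 h. Untreated cells were the control in both lines, and each library came from a pool of independent RNA extractions. One label of the untreated MDA-MB-231 library carries another cell line name, whereas its title gives MDA-MB-231. All values are FPKM, fragments scaled by transcript length and by mapped fragments, so levels can be compared between genes.

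IRF3 and IRF7 are the factors that virus sensors switch on. Adaptors such as MAVS and STING and the kinases TBK1 and IKKε phosphorylate them, and they then drive type I and type III interferon genes. Secreted interferon acts back through its receptor and JAK kinases on a complex that holds STAT2 and IRF9, called ISGF3, which binds interferon-stimulated response elements (ISREs). IRF7 is itself a target of ISGF3, so it is known both as a sensor factor and as an interferon-stimulated gene. IRF1 is an activator induced by interferon gamma through GAS elements, IRF2 is known mainly as its antagonist on shared sites, IRF5 acts downstream of Toll-like receptors, and IRF4 and IRF8 are mainly factors of lymphoid and myeloid cells.

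The 250 bases upstream of the start of IRF1 and of IRF9 are shown because, of the windows at an annotated gene start, they held the most and the fewest CpGs, the sites that DNA methyltransferases act on, and because both hold letters of a GAS or ISRE pattern. Sequences are from RefSeq on GRCh38.p14, a later build than that of the expression files, with motif matches in capitals. The IRF1 stretch is chr5:132490774-132491023 on the minus strand, and the IRF9 stretch is chr14:24161015-24161264 on the plus strand.
IRF1: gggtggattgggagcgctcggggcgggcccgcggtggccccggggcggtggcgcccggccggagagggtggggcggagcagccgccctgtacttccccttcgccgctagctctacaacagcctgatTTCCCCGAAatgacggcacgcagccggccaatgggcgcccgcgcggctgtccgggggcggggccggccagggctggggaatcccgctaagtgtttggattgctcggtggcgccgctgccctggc
IRF9: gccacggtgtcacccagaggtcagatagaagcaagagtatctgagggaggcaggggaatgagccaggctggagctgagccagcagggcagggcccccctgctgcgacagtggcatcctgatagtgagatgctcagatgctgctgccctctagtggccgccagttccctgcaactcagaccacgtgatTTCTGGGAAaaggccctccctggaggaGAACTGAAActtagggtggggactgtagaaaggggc
Promoter windows of 300 bases, 250 before and 50 after a start, were found for 5 of the 8 members, in 9 windows. No entry was held for IRF2, IRF3 or IRF7. IRF5 and IRF8 had windows only at internal starts, 895 to 4236 and 3668 to 3853 bases downstream of the annotated gene start. Their windows at the annotated gene start were not searched. The IRF1 window held 36 CpGs, the IRF4 window 32 and the IRF9 window 7, against a median of 14 over 35116 promoters. The CpG observed/expected ratio was 0.890 for IRF1, 0.841 for IRF4 and 0.265 for IRF9. DNA methylation at these stretches was not analysed here. In capitals in IRF1 is the GAS-type match TTCCCCGAA at position -124, counted from the start. In IRF9 the capitals mark TTCTGGGAA at -63, also GAS-type, and GAACTGAAA at -36, a short ISRE-type match. The GAS pattern searched was TTCNNNGAA on both strands, which 7.66% of all promoter windows hold and 2 of the 9 member windows held. The short ISRE pattern GAANNGAAA was in 7.66% of all windows and in 3 of the 9, those of IRF5, IRF8 and IRF9. The longer GAAANNGAAA was in 3.57% of all windows and in 0 of the 9. A match is a string of letters in the window and does not show that a factor binds there.

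The files hold FPKM, which is already scaled by mapped fragments, so a sum of FPKM is not a sequencing depth. On 1 kilobase 1 read was worth 0.0232 FPKM untreated and 0.0233 FPKM after DAC, nearly the same in both libraries. For MDA-MB-231 the FPKM of all transcripts add up to 589238 without and 480455 with DAC, and the median DAC/untreated ratio over 11292 symbols at 1 FPKM or more in both was 0.912. Dividing DAC values by this median raises every ratio by the same factor. All 7 markers of MDA-MB-231-type cells were above 1 FPKM in both libraries, with vimentin (VIM) at 3066 FPKM untreated and 1134 after DAC. Of the 5 luminal markers, the receptor genes ESR1 and PGR were at 0 untreated and under 0.1 FPKM after DAC. The other luminal markers were detected, ERBB2 at 11.8 and 12.7 FPKM, FOXA1 at 1.10 and 1.83, and GATA3 at 0.795 and 1.71. Of the 3 epithelial junction markers, CDH1 was at 0 and 0.179 FPKM, EPCAM at 7.90 and 9.78, and CLDN4 at 7.62 and 2.60. With 1 library per condition, MDA-MB-231 differences have no replicate check. The only errors are the lower and upper bounds that Cuffdiff gave each transcript and the counting error of reads inferred from the FPKM. For HMLER each condition is represented by a single FPKM that merges its 2 libraries, so no spread can be given. In bulk RNA, a change in the share of cells that express a gene and a change in RNA per cell cannot be told apart.

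In MDA-MB-231 cells, IRF7 was the member with the largest DAC/untreated ratio, 7.15, followed by IRF3 at 2.19. IRF1 and IRF9 had smaller ratios above 1, IRF2 was the only member at 1 FPKM or more with a ratio below 1, and IRF4, IRF5 and IRF8 were under 1 FPKM in both libraries. A gene was counted as higher when its ratio was above 2 with at least 1 FPKM in at least 1 library. By this rule 2 of the 8 members were higher, IRF3 and IRF7, among the 5 that reached 1 FPKM, where the same rule takes 10.8% of the 12525 symbols at 1 FPKM or more. None of the 8 was lower, which means a ratio below 0.5, against 4.82% of all symbols. The median log2 change of the 5 members at 1 FPKM or more was 0.78, and that of all symbols -0.08, both computed with a pseudocount of 1. The FPKM of the 8 members added up to 58.2 without and 126.7 with DAC, and IRF3 made up most of both sums.

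**Figure D1:**
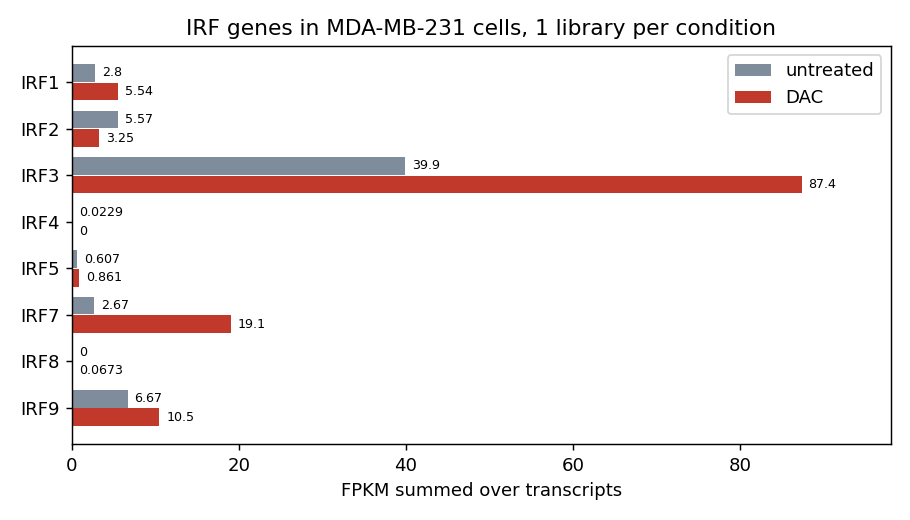
Bars give the FPKM of each IRF member summed over its transcripts (horizontal axis, linear from 0), grey for the untreated and red for the DAC library of MDA-MB-231, with the value printed beside each bar and no error, as there was 1 library per condition. IRF3 lies highest in both libraries (39.9 and 87.4 FPKM), IRF7 goes from 2.67 to 19.1 FPKM, and IRF4, IRF5 and IRF8 stay under 1 FPKM.

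IRF7, located at chr11:612553-615983 on the minus strand of GRCh37, measured 2.67 FPKM without and 19.1 FPKM with DAC in MDA-MB-231 cells. Its log2 change was 2.45, above 96.2% of the symbols at 1 FPKM or more by ratio. The FPKM came from 3 transcripts. NM_001572 measured 1.43 FPKM untreated (bounds 0 to 3.47) and 6.50 FPKM after DAC (0.673 to 12.3). NM_004031 measured 1.19 FPKM untreated (0 to 3.38) and 6.92 FPKM after DAC (0.949 to 12.9). NM_004029 measured 0.0502 FPKM untreated (0 to 0.441) and 5.66 FPKM after DAC (0 to 11.4). All 3 transcripts were thus higher after DAC, and NM_004029 went from 1.88% to 29.6% of the IRF7 sum, although the bounds of each overlapped between the libraries. The transcripts share most of their exons, so how Cuffdiff divided reads among them is less certain than their sum.

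IRF3, located at chr19:50162826-50169132 on the minus strand, was the most abundant member, with 39.9 FPKM untreated and 87.4 FPKM after DAC, a log2 change of 1.11. Of its 9 transcripts 6 reached 1 FPKM. NM_001571 carried most of the signal, with 23.2 FPKM untreated (bounds 2.64 to 43.9) and 57.2 FPKM after DAC (14.1 to 100.3). NM_001197125 measured 2.97 FPKM untreated and 11.4 FPKM after DAC, a ratio of 3.82, the highest among the IRF3 transcripts. NM_001197124 went the other way, from 1.52 FPKM to 0, with bounds that overlapped (0 to 7.49 and 0 to 0.0457). The sum was higher after DAC, and the transcripts behind it did not all have ratios on the same side of 1. The 5′ part of IRF3 overlaps BCL2L12, a gene of the BCL2 family on the opposite strand, by 734 bases. BCL2L12 measured 38.4 FPKM untreated and 52.7 FPKM after DAC, a ratio of 1.37, and the IRF3/BCL2L12 quotient went from 1.04 to 1.66. The counting is not stated to use strand, so reads of the shared stretch cannot be assigned to 1 of these genes, and the part of BCL2L12 in the IRF3 ratio was not tested.

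**Figure D2:**
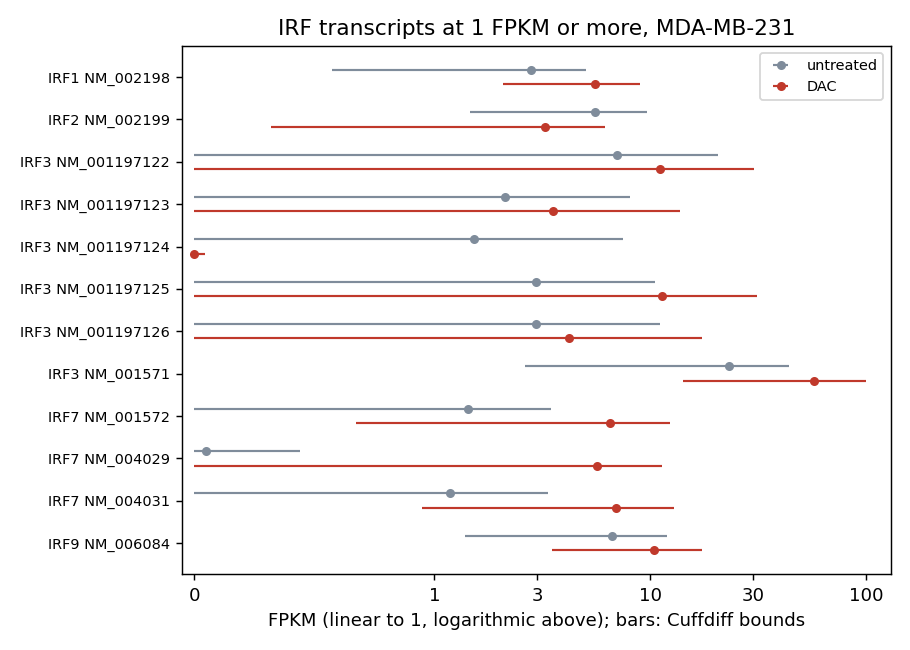
FPKM of the 12 member transcripts with 1 FPKM or more in either library of MDA-MB-231 (horizontal axis linear to 1 and logarithmic above; points are the untreated and DAC values, bars the Cuffdiff lower and upper bounds). The bars of the 2 libraries overlap for every transcript shown, with NM_001571 of IRF3 highest at 23.2 and 57.2 FPKM.

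The bounds of all 24 member transcripts overlapped between the libraries. Requiring a ratio above 2 and bounds of the largest transcript that do not overlap takes 1.06% of 12396 symbols as higher and 0.379% as lower, and it took 0 of the 8 members in either direction. Reads give a narrower error, which covers counting only. Low FPKM values lie on evenly spaced steps, each the worth of 1 read, which was 0.0232 FPKM untreated and 0.0233 FPKM after DAC on 1 kilobase. On this scale IRF7 had about 203 reads untreated and 1419 after DAC, a ratio of 7.04 with a 95% exact interval of 6.07 to 8.19. IRF3 had about 2288 and 5027 reads, a ratio of 2.21 (2.10 to 2.32). An exact two-sided binomial test, adjusted by Benjamini-Hochberg over 15510 symbols with 10 or more inferred reads, gave an adjusted p of 9.32e-225 for IRF7 and 9.91e-233 for IRF3. This test compares these libraries and not the conditions. It called 37.6% of all symbols as having more reads after DAC and 38.8% as having fewer, so passing it sets no member apart from most other genes.

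IRF9, the DNA-binding partner of STAT2, measured 6.67 FPKM untreated (bounds 1.39 to 12.0) and 10.5 FPKM after DAC (3.51 to 17.4). It is located at chr14:24630443-24637252 on the plus strand and has 1 transcript, NM_006084. The ratio was 1.57 and the log2 change 0.58, below the 2-fold threshold and above the median of all symbols. Inferred reads numbered about 414 and 646, a ratio of 1.57 (1.39 to 1.78, exact binomial test, adjusted p = 1.30e-12). STAT2 had a similar ratio of 1.63, from 6.33 to 10.3 FPKM, also below 2-fold. The annotation places a protein-coding gene, ENSG00000259529, on the same strand over 5219 bases of the IRF9 gene span. Overlap of exons was not checked, and reads of any shared exon cannot be told apart here.

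IRF1 and IRF2, the activator and its antagonist, had ratios on opposite sides of 1. IRF1, located at chr5:131776132-131844411 on the minus strand, measured 2.80 FPKM untreated (bounds 0.575 to 5.03) and 5.54 FPKM after DAC (2.07 to 9.01). Its ratio of 1.98 lay just under the 2-fold threshold, and it became 2.17 when DAC values were divided by the median ratio of all symbols. IRF2, located at chr4:185306856-185395712 on the minus strand, measured 5.57 FPKM untreated (1.47 to 9.66) and 3.25 FPKM after DAC (0.321 to 6.19), a ratio of 0.585, and 0.641 after that division. In untreated cells IRF2 exceeded IRF1, and after DAC treatment IRF1 exceeded IRF2. The IRF1/IRF2 quotient, which no scaling between libraries can change, went from 0.503 to 1.70, a 3.38-fold difference. Inferred reads were about 401 and 787 for IRF1, a ratio of 1.98 (1.75 to 2.23, exact binomial test, adjusted p = 2.35e-29). They were about 492 and 286 for IRF2, a ratio of 0.585 (0.504 to 0.678, exact binomial test, adjusted p = 7.56e-13). The Cuffdiff bounds of each gene still overlapped between the libraries. On the opposite strand the annotation places the antisense RNA IRF1-AS1 and the gene model ENSG00000283782 over the IRF1 gene span given above. Overlap with the exons of the measured IRF1 transcript was not checked. Without strand, reads of any shared exon cannot be told apart.

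IRF5, located at chr7:128577511-128590092 on the plus strand, measured 0.607 FPKM untreated and 0.861 FPKM after DAC, a ratio of 1.42. Its 5 transcripts held different parts of this low signal. NM_001098630 measured 0.606 FPKM untreated and 0.317 FPKM after DAC, and NM_032643 measured 0 and 0.542 FPKM, 63.0% of the DAC sum. On the transcript with the most signal alone, NM_001098630, the log2 change was -0.29, whereas the sum gave 0.21. About 68 and 94 reads lay behind these values, a ratio of 1.39 (1.01 to 1.93), and the exact binomial test did not pass after adjustment (adjusted p = 0.0579).

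IRF4 and IRF8, the lymphoid and myeloid factors, were close to 0 in both libraries. IRF4, located at chr6:391739-411443 on the plus strand, measured 0.0229 FPKM untreated and 0 after DAC, about 5 reads against 0. The exact 95% interval of its DAC/untreated read ratio ran from 0 to 1.10, which includes no difference (exact binomial test, p = 0.0635, not adjusted). IRF8, located at chr16:85932722-85956212 on the plus strand, measured 0 untreated and 0.0673 FPKM after DAC, 0 reads against about 7, and the exact 95% interval of its read ratio had a lower limit of 1.45 and no upper limit (exact binomial test, p = 0.0153, not adjusted). Neither level approached 1 FPKM. Genes of blood cells were low as well, with PTPRC (CD45) at 0.0247 FPKM untreated and 0.119 FPKM after DAC, and MS4A1 (CD20) at 0 in both. In the marker lists, 4 of 5 B cell genes and 4 of 5 myeloid genes were under 1 FPKM untreated, and 3 of 5 and 4 of 5 after DAC. In the leukocyte list 3 of 4 genes were under 1 FPKM in both libraries. The 3 genes that cells other than leukocytes also express, SDC1, CD68 and LCP1, made up nearly all of the list sums. These sums were 64.1 FPKM untreated and 29.8 FPKM after DAC for B cell genes, 137.3 and 163.0 FPKM for myeloid genes, and 229.7 and 93.7 FPKM for leukocyte genes. The part of such cells in the IRF4 and IRF8 values was not tested.

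**Figure D3:**
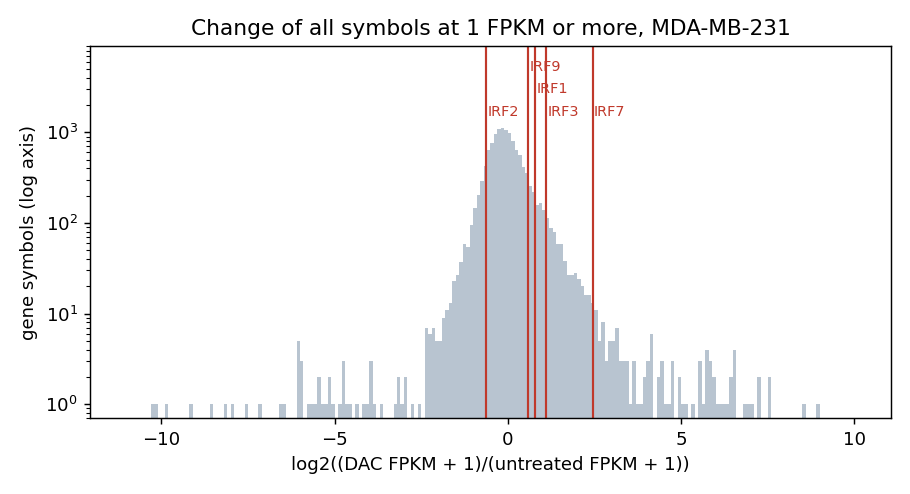
Distribution of the log2 change (DAC over untreated FPKM, pseudocount 1, horizontal axis) over the 12525 symbols at 1 FPKM or more in MDA-MB-231, with the number of symbols on a logarithmic vertical axis and red lines at the 5 members that reached 1 FPKM. IRF2 lies at -0.63, left of the median of -0.08, and IRF9, IRF1, IRF3 and IRF7 lie to its right at 0.58, 0.78, 1.11 and 2.45.

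By ratio, IRF2 stood at percentile 8.82 of the symbols at 1 FPKM or more, IRF9 at 84.5, IRF1 at 89.1 and IRF3 at 90.5. Ordered by level, the members in untreated cells ran IRF3, IRF9, IRF2, IRF1, IRF7, IRF5, IRF4 and IRF8. After DAC treatment the order was IRF3, IRF7, IRF9, IRF1, IRF2, IRF5, IRF8 and IRF4. IRF7 moved from rank 5 to rank 2 and IRF2 from rank 3 to rank 5. The IRF7/IRF3 quotient went from 0.0669 to 0.218, so IRF3 was still 4.58 times as abundant as IRF7 after DAC, against 15.0 times before. The bounds do not separate all members in these orders: those of IRF1, IRF2 and IRF9 overlapped each other in both libraries. Sums over several transcripts, such as those of IRF3 and IRF7, carry no bounds.

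In HMLER cells, IRF3 and IRF7 were the members listed, 2 of 8, where the table lists 10.9% of the 12525 symbols that passed 1 FPKM in MDA-MB-231. That table holds only transcripts with at least 1 FPKM after DAC and a ratio above 2, so every listed transcript was higher by construction, and the other 6 members were not analysed there. Of the 9 IRF3 transcripts 2 were listed, and NM_001571, which carried most of the IRF3 signal in MDA-MB-231, was not among them. Of the 3 IRF7 transcripts 2 were listed. The HMLER ratios below therefore rest on transcripts chosen for being higher and do not give the change of the whole gene. IRF7 NM_004031 measured 0.927 FPKM untreated and 6.11 FPKM after DAC, and NM_001572 measured 2.02 and 8.97 FPKM. Their sum went from 2.95 to 15.1 FPKM, a ratio of 5.11. IRF3 NM_001197125 measured 2.76 and 13.2 FPKM, and NM_001197122 measured 4.75 and 10.4 FPKM, with a summed ratio of 3.14 over these 2 transcripts. The same transcripts in MDA-MB-231 cells gave ratios of 5.12 for IRF7 and 2.24 for IRF3. On these transcripts IRF7 measured 2.62 FPKM without and 13.4 FPKM with DAC in MDA-MB-231. The tables were made separately and carry no replicate error, so the difference between the lines was not tested. Members higher in MDA-MB-231 and with a transcript listed in HMLER, which is what higher in both lines means here, numbered 2 of 8, against 3.66% of the same 12525 symbols that were both higher and listed.

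**Figure D4:**
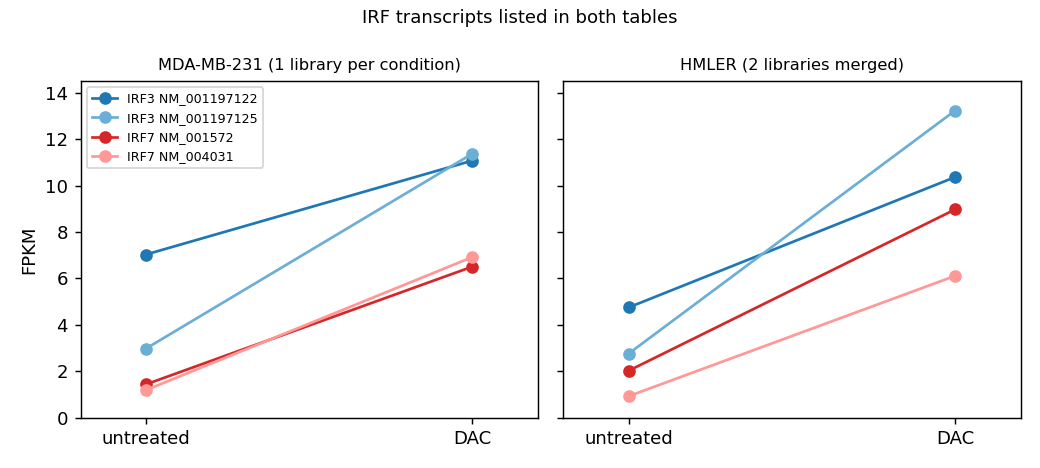
FPKM (vertical axis, from 0) without and with DAC of the 4 transcripts of IRF3 (blue) and IRF7 (red) that both tables list, in MDA-MB-231 (left) and HMLER (right), 1 point per condition, with lines joining the conditions. All 4 go up in both panels, NM_001197125 of IRF3 the furthest in HMLER, from 2.76 to 13.2 FPKM, and NM_004031 of IRF7 from 0.927 to 6.11 FPKM.

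The genes whose 4 values were most like those of IRF7 were FOS, HSPA2 and HIST1H2BC, at Euclidean distances of 0.696, 0.707 and 0.734 on the log2(FPKM + 1) scale over 1853 symbols. For IRF3 they were LY6K, SCAMP3 and LOC375295, at 0.603, 0.635 and 0.728. These distances rest on 4 values each, and the symbols compared are those of the HMLER table, where every listed transcript was higher after DAC. The MDA-MB-231 values sum all transcripts of a symbol and the HMLER values only those listed. For IRF3 this sets 9 transcripts beside 2, and for IRF7 3 beside 2, so the neighbours depend on that mismatch.

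The genes around the IRFs in the pathway were examined as lists. Of the 21 interferon ligand genes, all were listed at 0 in untreated MDA-MB-231 cells and 20 were listed at 0 in both libraries. The exception was IFNK, an epithelial type I interferon, at 0.0252 FPKM after DAC. None was listed in HMLER. The list of adaptors and kinases upstream of the IRFs held 15 genes. It included IRF2BP1, IRF2BP2 and IRF2BPL, which are IRF2-binding proteins and neither adaptors nor kinases. All 15 reached 1 FPKM and the median log2 change was -0.04. Of these 0 were higher and 0 lower, against 10.8% and 4.82% of all symbols. Among them TBK1 measured 18.3 FPKM untreated and 16.8 FPKM after DAC, and MAVS 14.0 and 10.3 FPKM. TMEM173 (STING) measured 23.3 and 39.7 FPKM, a ratio of 1.70. The log2 change was above 0 for 7 of the 15, and ratios ran from 0.587 (IRAK4) to 1.75 (TICAM1). Of the 15 receptor and JAK-STAT genes 13 reached 1 FPKM, with a median of -0.06. Of the 13, 0 were higher and 1 was lower, against the same 10.8% and 4.82%. Both medians lay close to the -0.08 of all symbols and became 0.08 and 0.06 after division by the median ratio. The 1 that was lower was SOCS3, a feedback inhibitor of JAK-STAT signalling, at 40.5 FPKM untreated and 8.66 FPKM after DAC. In HMLER 2 genes of this list were listed, both also feedback inhibitors. SOCS1 measured 0.412 FPKM untreated and 2.44 FPKM after DAC there, and USP18 1.63 and 6.35 FPKM.

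Downstream, 17 of the 30 genes that ISGF3-type complexes are known to drive reached 1 FPKM, of which 7 were higher and 0 lower, with a median log2 change of 0.82. In HMLER 14 of the 30 were listed, 11 of them among the 17, and 6 were higher in both lines. Over all symbols the corresponding shares were the 10.8% higher, 10.9% listed and 3.66% both given above. IFIT1, which binds foreign RNA, measured 3.31 FPKM untreated and 10.7 FPKM after DAC in MDA-MB-231 cells, with 1.62 and 8.69 FPKM in HMLER. OASL, an antiviral OAS-like protein, measured 1.07 and 4.58 FPKM in MDA-MB-231 and 5.09 and 17.5 FPKM in HMLER. ISG15, a ubiquitin-like modifier, measured 71.4 and 187.3 FPKM in MDA-MB-231 and 20.04 and 224.3 FPKM in HMLER. In MDA-MB-231 the log2 change was above 0 for 14 of the 17. IFIT5, at 9.68 and 6.52 FPKM, SAMD9, at 4.06 and 3.45, and IFI44, at 5.64 and 5.55, had ratios below 1. IFITM3, the most abundant, measured 312.1 and 329.0 FPKM, a ratio of 1.05. ISG20, at 0.406 and 4.52 FPKM, and DDX60, at 0.672 and 1.31, reached 1 FPKM only after DAC. Other genes of the same list stayed under 1 FPKM in both MDA-MB-231 libraries, including MX1 at 0.0516 and 0.248 FPKM.

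**Figure D5:**
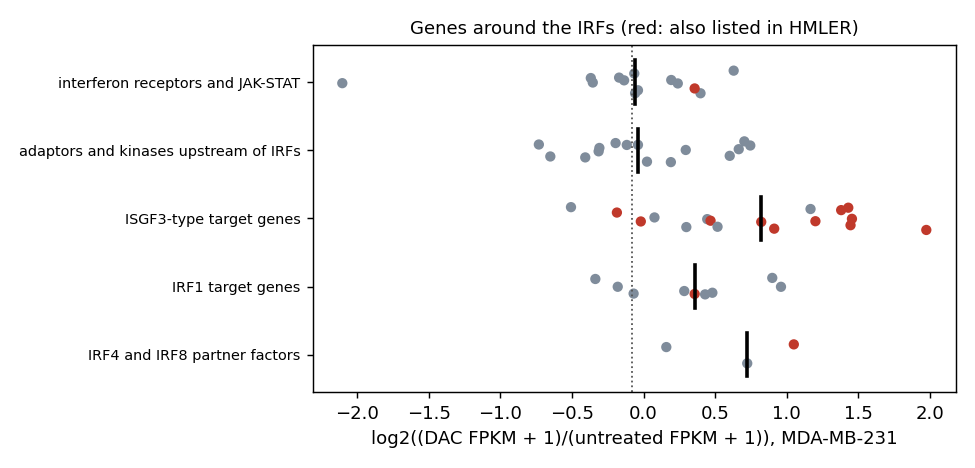
Log2 change (DAC over untreated FPKM, pseudocount 1) of the genes at 1 FPKM or more in each pathway list in MDA-MB-231, 1 point per gene (red if also listed in HMLER, otherwise grey, spread vertically for visibility), with a black bar at each list's median and a dotted line at the median of all symbols, -0.08. The ISGF3-type genes lie mostly to the right, with a median of 0.82. The adaptor and kinase list, which includes the IRF2-binding proteins, has a median of -0.04, which became 0.08 after division by the median ratio.

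Of 20 genes known as IRF1 targets 9 reached 1 FPKM, with 2 higher, 0 lower and a median log2 change of 0.36, where 10.8% of all symbols were higher and 4.82% lower. In HMLER 3 of the 20 were listed, 1 of them among the 9, and 0 were higher in both lines. The 2, named after their values were seen, were PSMB10, an immunoproteasome subunit, at 10.8 and 21.9 FPKM, and HLA-B, a class I antigen-presenting molecule, at 5.69 and 11.5 FPKM. TAP1, PSMB8 and PSMB9 were listed at 0 in both MDA-MB-231 libraries, and HLA-E and TAP2 were also near 0. TAP1 measured 23.4 FPKM untreated and 50.9 FPKM after DAC in HMLER. A listed 0 for these genes can be a failed estimate and is not read as absent expression. Class I genes are near copies of each other, and how reads were divided among them is uncertain. The list of IRF4 and IRF8 partner factors held 10 genes, and the partnership was not checked for each. Of these 3 reached 1 FPKM, with a median log2 change of 0.72, which was 0.12 with no filter on low values. Of the 3, 1 was higher, where 10.8% of all symbols were. This was PRDM1, a zinc finger repressor, at 0.151 and 1.38 FPKM in MDA-MB-231 and 0.268 and 2.06 FPKM in HMLER. PRDM1 reached 1 FPKM in MDA-MB-231 only after DAC, so its place among the 3 and its call as higher rest on the same value.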

How the data were processed

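RNA-seq of 6 libraries was analysed, grouped by cell line and treatment from the labels. Per the labels, libraries were made with the Illumina TruSeq RNA kit. The authors used TopHat2 for alignment to hg19 and Cuffdiff, on Galaxy, for FPKM of each RefSeq transcript. Versions and library scaling are not given in the sources used here. The deposited tables hold FPKM, not counts. The authors' own fold changes, test statistics and p-values in these tables were not used. The members and lists were chosen with earlier results of these data known.

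FPKM was summed over the transcripts of a symbol. Higher meant a DAC/untreated ratio above 2, and lower a ratio below 0.5, with at least 1 FPKM in 1 library. Log2 changes had a pseudocount of 1, which understates changes of low genes. Reads were inferred as FPKM times the transcript length minus 240 bases, divided by what 1 read is worth, and rounded. The worth was found from transcripts of at least 2000 bases, where 100% of 698 low values untreated and 713 after DAC lay within 0.1 of a whole read, up to 8 reads. Exact binomial tests on these reads were adjusted over all symbols with 10 or more reads, in place of the members alone as first planned. Intervals (95%, exact) cover counting error only. Scripts were tested on simulated data.

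Besides the 8 members, genes were named where a list gene was higher in both lines or lower in MDA-MB-231, at most 3 of each kind per list by the largest change, with the 3 symbols nearest to each listed member. STAT2, TBK1, MAVS, MX1, IFNK, TAP1, PSMB8, PSMB9, PSMB10, HLA-B, HLA-E, TAP2, SOCS1 and USP18 were named outside this rule after their values were seen. So were TMEM173, TICAM1, IRAK4, IRF2BP1, IRF2BP2, IRF2BPL, IFITM3, IFIT5, SAMD9, IFI44, ISG20 and DDX60. Positions are from GENCODE lifted to GRCh37, the assembly of hg19. Alternatives were other filters, pseudocounts of 0.1 and 0.01, division by the median ratio, the largest or any transcript, Cuffdiff status, bounds, and lengths minus 200 or 300 bases. Chosen after seeing the data were reads summed over transcripts, the wider adjustment, and IRF3 and IRF7 over the transcripts listed in HMLER. Calculations used scipy 1.17.1, pandas 2.3.3 and numpy 2.4.6 under Python 3.11.15, and figures matplotlib 3.10.9.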

Additional observations from a re-analysis of the deposited data

How the results depend on the processing

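Of the alternative values of the counts and list medians, 49 stayed within 1.5 times the main value (list medians within 1.5-fold on the linear scale) and 5 moved. Division by the median ratio turned the list medians of the receptor genes, to 0.06, and of the adaptors, to 0.08 (0.14 on the largest transcript), from slightly below to slightly above 0. When the bounds of the largest transcript must not overlap, the members higher in MDA-MB-231 went from 2 to 0 and those higher in both lines from 2 to 0. The number lower went from 0 to 1 with no filter on low values, through IRF4, and from 0 to 1 when any transcript may count, through NM_001197124 of IRF3. With no filter, the median log2 change of the IRF4 and IRF8 partner factors went from 0.72 to 0.12. It then rested on those of the 10 genes that were above 0 in either library, in place of 3. The median of the ISGF3-type genes went from 0.82 to 0.32, with 30 in place of 17. Division by the median ratio, and no filter, each gave 3 higher members, through IRF1 and IRF8. On the largest transcript IRF5 had a log2 change of -0.29 in place of 0.21, and IRF7 1.86 in place of 2.45. No paired analysis was possible because each HMLER value merges its libraries and each MDA-MB-231 condition is a single library, and for the same reason no replicate could be left out. Depth limits IRF4, IRF5 and IRF8, which rest on fewer than 100 inferred reads in each library.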
